A study of Mus musculus with 12 samples.

Results

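The RNA levels of p53 and 9 of its target genes were followed in MEFs, fibroblasts cultured from mouse embryos, after 24 h with 1 of 3 inhibitors of the kinase mTOR. The 10 genes (Trp53, which encodes p53, and Mdm2, Ccng1, Bax, Zmat3, Trp53inp1, Phlda3, Tnfrsf10b, Aen and Perp) were taken by symbol from a fixed list and make up 10 of the 49315 genes counted in each library. That list was chosen with earlier results of these data known, so its counts beside those of all genes are a description. The control cells received DMSO, the solvent. The other groups received rapamycin at 20 ng/ml, Torin1 at 250 nM or RapaLink-1 at 10 nM, with 3 libraries in each of the 4 groups. Rapamycin is a macrolide that inhibits mTOR complex 1 through FKBP12, Torin1 competes with ATP at the mTOR kinase, and RapaLink-1 joins rapamycin to an mTOR kinase inhibitor by a linker. Doses were not matched, so each difference between compounds is a difference between treatments at these doses. Strain, genotype, passage and any immortalisation of the cells are not given in the labels, nor do they say whether replicate libraries are separate cultures. P-values therefore measure the spread between these libraries, largely pooled over genes, and that spread may be technical.

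p53 is a transcription factor that is kept scarce by the ubiquitin ligase MDM2 and is stabilised when DNA damage, oncogene activity or defects of ribosome assembly release it from that ligase. It binds pairs of decamers in DNA and raises transcription of genes that halt the cell cycle, promote cell death, repair DNA or restrain growth signalling, and Mdm2 itself is a target, which closes a negative feedback loop. In MEFs the pathway is known for limiting growth in culture, where p53 and its activator p19Arf, encoded at Cdkn2a, drive senescence. Levels of p53 are set largely at the protein, which was not measured here.

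The sequence that p53 reads was looked for near the starts of these genes, to show where in the members the decamer lies. RefSeq windows (GRCm38.p6) of 300 bases, from 250 before to 50 after a start site, matched 6 of the 10 genes by symbol: Trp53, Mdm2, Ccng1, Bax, Phlda3 and Aen. The p53 consensus decamer (3 purines, C, 2 bases that are A or T, G, 3 pyrimidines) is its own reverse complement, so both strands were read at once. It was found in the windows of 5 of these 6 genes, and these letters were not in the window of Phlda3. Of all 32851 windows, 8.36% held it, which is a share of windows and not of genes, and a gene can have several windows. No window of the 6 genes held a pair of decamers with a gap of up to 13 bases, and 0.07% of all windows did. The stretches are printed 5′ to 3′ on the strand of the gene, with the decamer in capitals. A match describes letters in a window and shows no binding.
Trp53, chr11:69580274-69580303 on the + strand, with the decamer 75 bases before the start: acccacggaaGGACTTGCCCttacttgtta
Mdm2, chr10:117710890-117710989 on the - strand, with the decamer 186 bases before the start: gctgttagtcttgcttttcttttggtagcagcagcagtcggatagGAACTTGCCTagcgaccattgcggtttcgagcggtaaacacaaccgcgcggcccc
Ccng1, chr11:40755417-40755516 on the - strand, with the decamer 185 bases before the start: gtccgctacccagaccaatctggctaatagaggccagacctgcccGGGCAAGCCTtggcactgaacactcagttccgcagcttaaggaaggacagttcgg
Bax, chr7:45467045-45467144 on the - strand, with the decamer 201 bases before the start: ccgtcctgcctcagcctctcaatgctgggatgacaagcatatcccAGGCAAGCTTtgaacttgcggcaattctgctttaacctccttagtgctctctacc
Aen, chr7:78895927-78895956 on the + strand, with the decamer 121 bases before the later of its RefSeq starts and 10 bases after the earlier: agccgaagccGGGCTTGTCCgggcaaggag

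Total counts were 30075870 to 39423703 per library. Levels are given as CPM (reads of the gene scaled to a common library total) on TMM-scaled library sizes, a share of each library, so a change in total RNA per cell is not seen in them. Log2 fold changes (log2FC) are given with their standard errors and with p-values adjusted over the 15917 genes tested. Calls used an adjusted p below 0.05. Fibroblast markers were abundant, as the label has it: all 8 passed the filter on low counts and summed to 18610 to 21500 CPM. Epithelial markers summed to at most 1.76 CPM and muscle markers to at most 0.439 CPM, with the muscle regulators Myod1 and Myog at 0. Blood and macrophage markers, led by Cd68, summed to 3.22 to 3.52 CPM with DMSO and 2.49 to 3.93 CPM with rapamycin. With Torin1 they summed to 4.41 to 4.51 CPM and with RapaLink-1 to 3.95 to 4.39 CPM. Endothelial markers summed to 0.814 to 1.59 CPM with DMSO and 2.65 to 2.93 CPM with RapaLink-1, and neural markers, led by Tubb3, to 16.1 to 20.0 and 8.38 to 9.51 CPM. The part of these low markers in the results below was not tested. In bulk RNA, fewer cells that express a gene and less RNA per cell cannot be told apart.

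Most of the 9 target genes were lower with each inhibitor, while the p53 message was called higher with rapamycin and differed from DMSO with neither other compound by the test. All 10 genes passed the filter on low counts. With rapamycin 3 of the 10 were called higher (27.5% of all genes tested were) and 7 lower (32.2%). With Torin1 2 were called higher (39.8%) and 7 lower (38.3%), and with RapaLink-1 2 higher (38.7%) and 6 lower (37.9%). The median log2FC of the 10 was -0.20 with rapamycin, -0.32 with Torin1 and -0.28 with RapaLink-1, beside 0.00, 0.04 and 0.03 over all genes tested. Libraries of treated and control cells did not overlap for 10 of 10 genes with rapamycin (63% of all genes), 9 with Torin1 (78.5%) and 8 with RapaLink-1 (77.6%). The 3 comparisons share the same DMSO libraries. Upper-quartile scaling moved the median of all genes by 0.13 with Torin1 and 0.14 with RapaLink-1 and gave 3 higher and 6 lower with Torin1 and 4 higher and 6 lower with RapaLink-1. The shares of all genes called under that scaling are not given here, so these counts have no background beside them.

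**Figure D1:**
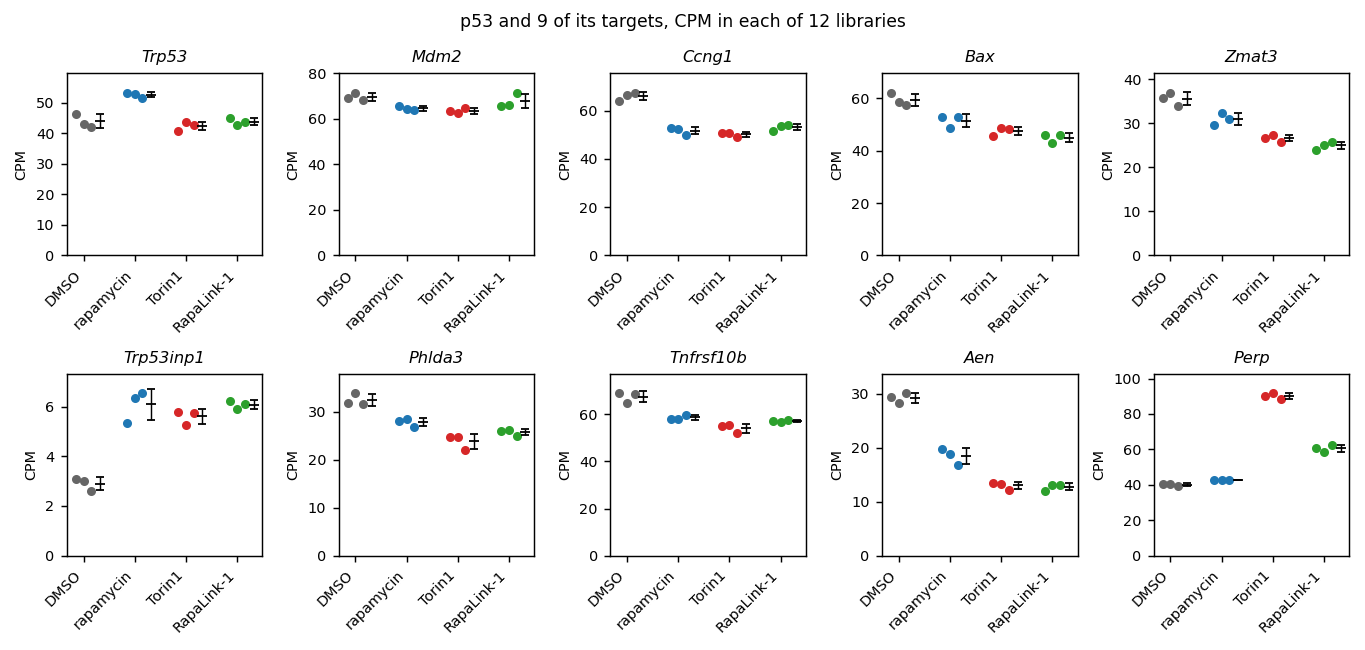
CPM (y axis, from 0) of each of the 10 genes in the 12 libraries, by treatment (x axis); points are libraries and the black marks beside them the mean ± SD of 3 libraries. Aen falls from 28.2 to 30.1 CPM with DMSO to 12.02 to 13.5 CPM with Torin1 or RapaLink-1, Perp reaches 88.2 to 91.8 CPM with Torin1, and the rapamycin libraries stand above the rest for Trp53.

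Trp53 (ENSMUSG00000059552, chr11:69580359-69591873, + strand, GRCm38) stood at 46.4, 43.0 and 42.1 CPM in the DMSO libraries and at 53.2, 52.8 and 51.6 CPM with rapamycin. With Torin1 it stood at 40.8, 43.7 and 42.6 CPM and with RapaLink-1 at 44.8, 42.8 and 43.8 CPM. Every rapamycin library lay above the other 9, and the other groups overlapped one another. The rise with rapamycin was 1.197-fold (log2FC 0.26 ± 0.03 SE, adjusted p = 2.65e-11). The difference was -0.05 ± 0.04 with Torin1 (adjusted p = 0.212, 95% interval -0.12 to 0.02) and -0.00 ± 0.04 with RapaLink-1 (adjusted p = 0.926, interval -0.08 to 0.07). Under upper-quartile scaling Trp53 was called higher with Torin1 (log2FC 0.08, adjusted p = 0.0429) and RapaLink-1 (0.13, adjusted p = 4.67e-04), and with RapaLink-1 also where genes averaging under 5 CPM were left out (0.08, adjusted p = 0.0299).

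Mdm2 (ENSMUSG00000020184, chr10:117688888-117710758, - strand), which encodes the ligase that removes p53, moved least of the targets with Torin1 and RapaLink-1. It stood at 69.2, 71.4 and 68.1 CPM with DMSO, 65.7, 64.3 and 63.7 CPM with rapamycin, 63.3, 62.4 and 64.9 CPM with Torin1 and 65.9, 66.3 and 71.5 CPM with RapaLink-1. The rapamycin and Torin1 libraries all lay below the DMSO libraries, and RapaLink-1 replicate 3 lay above all of them. Mdm2 was lower with rapamycin (log2FC -0.11 ± 0.03, adjusted p = 0.00121) and Torin1 (-0.13 ± 0.03, adjusted p = 5.78e-05), and differed from DMSO by -0.03 ± 0.03 with RapaLink-1 (adjusted p = 0.314, interval -0.09 to 0.03). Upper-quartile scaling ended both calls (-0.04 with rapamycin, adjusted p = 0.209, and -0.00 with Torin1, adjusted p = 0.943), as did the filter at 5 CPM (-0.05, adjusted p = 0.141, and -0.04, adjusted p = 0.236). For RapaLink-1, Mdm2 was called lower without RapaLink-1 replicate 3 (-0.08, adjusted p = 0.0382) and higher under upper-quartile scaling (0.10, adjusted p = 9.52e-04).

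Ccng1 (ENSMUSG00000020326, chr11:40748552-40755311, - strand), which encodes cyclin G1, a partner of the phosphatase PP2A that acts on MDM2, fell with all 3 compounds. It stood at 64.1, 66.6 and 67.5 CPM with DMSO and at 52.7, 52.5 and 49.95 CPM with rapamycin. The Torin1 libraries held 50.9, 50.7 and 48.9 CPM and the RapaLink-1 libraries 51.6, 53.6 and 54.2 CPM. All 9 treated libraries lay below the 3 DMSO libraries, and the rapamycin group overlapped both others. The log2FC was -0.35 ± 0.03 with rapamycin (adjusted p = 7.26e-21), -0.40 ± 0.03 with Torin1 (adjusted p = 1.12e-24) and -0.31 ± 0.03 with RapaLink-1 (adjusted p = 1.30e-17).

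Zmat3 (ENSMUSG00000027663, chr3:32334792-32366014, - strand), which encodes an RNA-binding zinc finger protein that regulates splicing, fell in steps that did not overlap between any groups next to each other. Its levels were 35.8, 36.9 and 34.0 CPM with DMSO, 29.7, 32.3 and 31.0 CPM with rapamycin, 26.6, 27.3 and 25.8 CPM with Torin1 and 24.0, 25.1 and 25.7 CPM with RapaLink-1. The log2FC against DMSO was -0.20 ± 0.04, -0.42 ± 0.04 and -0.51 ± 0.04 in that order (adjusted p = 8.07e-06, 6.42e-18 and 3.02e-23). Torin1 and RapaLink-1 did not differ by the test (log2FC -0.09 ± 0.05 for RapaLink-1 against Torin1, adjusted p = 0.126, interval -0.18 to 0.00).

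Among the targets that act in cell death, Bax, Tnfrsf10b and Aen fell with each compound and Perp rose with each. Bax (ENSMUSG00000003873, chr7:45461697-45466898, - strand) encodes the protein that opens the outer mitochondrial membrane. It stood at 62.2, 58.6 and 57.4 CPM with DMSO, 52.7, 48.9 and 53.1 CPM with rapamycin, 45.7, 48.7 and 48.4 CPM with Torin1 and 46.0, 43.0 and 46.1 CPM with RapaLink-1. The DMSO libraries lay above all others, and the Torin1 and RapaLink-1 groups overlapped. The log2FC was -0.20 ± 0.03 with rapamycin (adjusted p = 3.76e-08), -0.32 ± 0.03 with Torin1 (adjusted p = 3.25e-16) and -0.40 ± 0.03 with RapaLink-1 (adjusted p = 2.72e-22). Of its exonic bases, 12.2% overlap Gm45808 on the same strand, and reads there may be shared. No other member had exonic overlap with another gene.

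Tnfrsf10b (ENSMUSG00000022074, chr14:69767472-69784403, + strand), the mouse receptor for the death ligand TRAIL, stood at 69.1, 65.0 and 68.6 CPM with DMSO and 58.0, 58.2 and 59.9 CPM with rapamycin. It stood at 54.9, 55.4 and 52.0 CPM with Torin1 and 57.1, 56.8 and 57.7 CPM with RapaLink-1. No groups next to each other in level overlapped, with DMSO highest and Torin1 lowest. RapaLink-1 and rapamycin did not differ by the test (log2FC -0.04 ± 0.03 for RapaLink-1 against rapamycin, adjusted p = 0.290). The fall was 1.15-fold with rapamycin (log2FC -0.20 ± 0.03, adjusted p = 2.19e-09), 1.25-fold with Torin1 (-0.32 ± 0.03, adjusted p = 5.21e-19) and 1.18-fold with RapaLink-1 (-0.24 ± 0.03, adjusted p = 1.95e-12).

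Aen (ENSMUSG00000030609, chr7:78895854-78911209, + strand), which encodes a nuclease that digests DNA in dying cells, fell furthest of the 10 genes. It stood at 29.3, 28.2 and 30.1 CPM with DMSO, 19.7, 18.8 and 16.9 CPM with rapamycin, 13.5, 13.4 and 12.2 CPM with Torin1 and 12.02, 13.1 and 13.2 CPM with RapaLink-1. DMSO, rapamycin and the pair of kinase-directed compounds formed 3 levels without overlap, and Torin1 and RapaLink-1 overlapped. The fall was 1.59-fold with rapamycin (log2FC -0.67 ± 0.05, adjusted p = 2.32e-27), 2.25-fold with Torin1 (-1.17 ± 0.05, adjusted p = 9.81e-50) and 2.29-fold with RapaLink-1 (-1.19 ± 0.05, adjusted p = 1.51e-50). The size of this change exceeded that of 89.2% of all genes tested with rapamycin, 86.5% with Torin1 and 89.0% with RapaLink-1.

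Perp (ENSMUSG00000019851, chr10:18845020-18857073, + strand) encodes a membrane protein that takes part in p53-dependent death and, in epithelia, in desmosomes. It stood at 40.3, 40.5 and 39.1 CPM with DMSO and 42.7, 42.7 and 42.5 CPM with rapamycin. With Torin1 it reached 90.0, 91.8 and 88.2 CPM and with RapaLink-1 60.8, 58.5 and 62.6 CPM. The 4 groups did not overlap. The rise was 2.25-fold with Torin1 (log2FC 1.17 ± 0.03, adjusted p = 5.21e-80), 1.52-fold with RapaLink-1 (0.60 ± 0.03, adjusted p = 1.14e-39) and 1.07-fold with rapamycin (0.09 ± 0.04, adjusted p = 0.0177). The rapamycin call was lost with DESeq2 (adjusted p = 0.0633), without a filter on low counts (0.0682) and without DMSO replicate 3 (0.1003). Epithelial markers summed to 0.907 to 1.76 CPM with Torin1 and to 0.923 to 1.02 CPM with DMSO.

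Phlda3 (ENSMUSG00000041801, chr1:135766119-135769136, + strand) and Trp53inp1 (ENSMUSG00000028211, chr4:11156431-11174379, + strand) act on growth signalling and stress, and they moved in opposite directions. Phlda3, which encodes a protein that competes with AKT for membrane lipids, stood at 31.8, 34.0 and 31.6 CPM with DMSO, 28.2, 28.5 and 26.95 CPM with rapamycin, 24.9, 24.8 and 22.1 CPM with Torin1 and 26.0, 26.2 and 25.0 CPM with RapaLink-1. No groups next to each other in level overlapped, but RapaLink-1 and Torin1 did not differ by the test (adjusted p = 0.0568). The log2FC was -0.22 ± 0.04 with rapamycin (adjusted p = 2.66e-06), -0.44 ± 0.04 with Torin1 (adjusted p = 4.07e-18) and -0.33 ± 0.04 with RapaLink-1 (adjusted p = 5.18e-12).

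Trp53inp1, which encodes a nuclear protein that promotes p53 phosphorylation and also takes part in autophagy, had the lowest level of the 10 and rose with all 3 compounds. Its level was 3.10, 3.01 and 2.60 CPM with DMSO, from 93 counts upwards per library. It was 5.36, 6.36 and 6.55 CPM with rapamycin, 5.80, 5.27 and 5.77 CPM with Torin1 and 6.24, 5.89 and 6.13 CPM with RapaLink-1. All 9 treated libraries lay above the DMSO libraries, and the rapamycin libraries overlapped those of the other compounds. The rise was 2.098-fold with rapamycin (log2FC 1.07 ± 0.11, adjusted p = 1.08e-17), 1.93-fold with Torin1 (0.95 ± 0.11, adjusted p = 1.22e-14) and 2.09-fold with RapaLink-1 (1.07 ± 0.11, adjusted p = 7.66e-18). In size its change exceeded that of 96.7% of all genes tested with rapamycin, 79.6% with Torin1 and 85.8% with RapaLink-1.

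**Figure D2:**
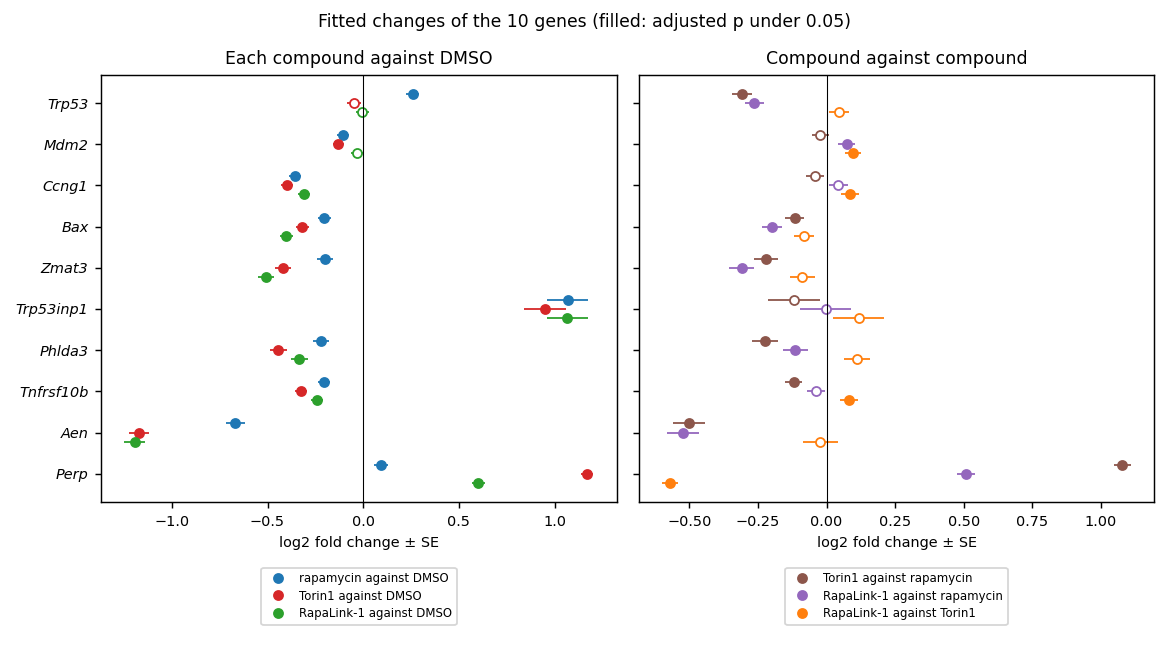
Log2 fold change ± SE (x axis) of each of the 10 genes (y axis), for each compound against DMSO on the left and for compound against compound on the right; filled points have an adjusted p under 0.05. Aen lies at -1.17 with Torin1 and -1.19 with RapaLink-1 against DMSO, Perp at 1.17 and 0.60, and Trp53inp1 between 0.95 and 1.07 with all 3 compounds.

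Direct comparison of the compounds, at their unmatched doses, separated rapamycin from both others at Trp53, Aen, Zmat3, Phlda3, Bax and Perp. Torin1 against rapamycin gave 1 gene called higher (34.2% of all genes tested were) and 6 lower (33.2%). Perp was 2.11-fold higher with Torin1 (log2FC 1.08 ± 0.03, adjusted p = 3.96e-75). Lower with Torin1 were Aen (-0.50 ± 0.06, adjusted p = 1.71e-14), Trp53 (-0.31 ± 0.04, adjusted p = 1.13e-14), Phlda3 (-0.22), Zmat3 (-0.22), Bax (-0.12) and Tnfrsf10b (-0.12). The calls for Bax (-0.05, adjusted p = 0.183) and Tnfrsf10b (-0.06, adjusted p = 0.111) were lost under upper-quartile scaling. Mdm2 (interval -0.08 to 0.04), Ccng1 (-0.11 to 0.02) and Trp53inp1 (-0.31 to 0.07) did not pass the test.

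RapaLink-1 carries a rapamycin part, and against rapamycin it gave 2 genes called higher (32% of all genes tested were) and 5 lower (33%). Perp was 1.42-fold higher (log2FC 0.51 ± 0.03, adjusted p = 1.82e-32) and Mdm2 1.05-fold higher (0.07 ± 0.03, adjusted p = 0.0270). Aen (-0.52 ± 0.06, adjusted p = 2.25e-15), Zmat3 (-0.31), Trp53 (-0.26), Bax (-0.20) and Phlda3 (-0.11) were lower. Upper-quartile scaling raised the median of all genes by 0.07 and gave 3 higher and 4 lower, without the shares of all genes under that scaling beside them. The Mdm2 call was lost with DESeq2 (adjusted p = 0.0614), without a filter on low counts (0.0630) and without rapamycin replicate 2 (0.0619), rapamycin replicate 3 (0.124) or RapaLink-1 replicate 3 (log2FC 0.02, adjusted p = 0.662). The Phlda3 call was lost under upper-quartile scaling (0.457), DESeq2 (0.0681), the filter at 5 CPM (0.0730) and without rapamycin replicate 1 (0.0586), rapamycin replicate 2 (0.0712) or RapaLink-1 replicate 3 (0.0609). Ccng1 (interval -0.02 to 0.11), Tnfrsf10b (-0.10 to 0.02) and Trp53inp1 (-0.19 to 0.18) did not pass the test. Ccng1 was called higher under upper-quartile scaling (0.12, adjusted p = 9.05e-04) and with the filter at 5 CPM (0.07, adjusted p = 0.0421).

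RapaLink-1 against Torin1 gave 3 genes called higher (16.7% of all genes tested were) and 1 lower (16.4%). Perp was 1.48-fold lower with RapaLink-1 (log2FC -0.57 ± 0.03, adjusted p = 7.89e-42). Mdm2 (0.10 ± 0.03, adjusted p = 0.00805), Ccng1 (0.09 ± 0.03, adjusted p = 0.0340) and Tnfrsf10b (0.08 ± 0.03, adjusted p = 0.0400) were higher. The calls for Ccng1 and Tnfrsf10b were lost with DESeq2 (adjusted p = 0.0519 and 0.0564), without a filter on low counts (0.0528 and 0.0626) and without Torin1 replicate 3 (0.131 and 0.241), and that for Ccng1 also without RapaLink-1 replicate 2 (0.0702). Without RapaLink-1 replicate 3 the calls for Mdm2 (log2FC 0.06, adjusted p = 0.163), Ccng1 (0.107) and Tnfrsf10b (0.0810) were all lost, and Perp was the only one of the 4 still called. Phlda3 did not pass the test (log2FC 0.11 ± 0.05, adjusted p = 0.0568, interval 0.02 to 0.20 before adjustment over genes), but was called higher with DESeq2 size factors (adjusted p = 0.0347), under upper-quartile scaling (0.0332) and without Torin1 replicate 1 (0.0232), Torin1 replicate 2 (0.0232) or RapaLink-1 replicate 3 (0.0347). Bax (-0.08 ± 0.04, adjusted p = 0.0623) was called lower with the filter at 5 CPM (0.0374) and without Torin1 replicate 1 (0.0351). For Aen the interval was -0.15 to 0.10 and for Trp53 -0.03 to 0.12.

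Levels between genes were compared per kilobase of counted exon. With DMSO, Bax was the most abundant of the 10 at 37.7 ± 1.58 CPM per kb (SD, n = 3), followed by Tnfrsf10b (21.3), Phlda3 (20.8), Perp (20.5), Ccng1 (18.8), Mdm2 (13.7), Trp53 (10.8), Aen (5.04), Zmat3 (3.11) and Trp53inp1 (0.448). The gap between Tnfrsf10b and Phlda3 and that between Phlda3 and Perp were each smaller than 1 SD of Phlda3 (0.838). With Torin1 Perp stood at 46.1 ± 0.935 CPM per kb and Bax at 30.2 ± 1.05, and with RapaLink-1 at 31.1 ± 1.06 and 28.6 ± 1.10.

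Beyond these 10 genes, 95 regulators and targets of p53 were listed by role, and 91 passed the filter on low counts. These lists too were chosen with earlier results of these data known, so their shares beside those of all genes are a description. Rapamycin gave 21 called higher and 42 lower, which is 23.1% and 46.2% of the 91, beside 27.5% and 32.2% of all genes tested. Torin1 gave 28 and 49 (30.8% and 53.8%, beside 39.8% and 38.3%), and RapaLink-1 29 and 49 (31.9% and 53.8%, beside 38.7% and 37.9%). The medians were -0.08, -0.16 and -0.15, beside the medians over all genes given above. Upper-quartile scaling raised the median of all genes by 0.06, 0.13 and 0.14, and the splits were then 26 to 29, 38 to 42 and 37 to 37. The shares of all genes called under that scaling are not given here, so these splits have no background beside them. The genes not tested were Casp1, Cd80, Trp73 and Gdf15, a secreted stress factor that lay between 0 and 0.240 CPM.

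**Figure D3:**
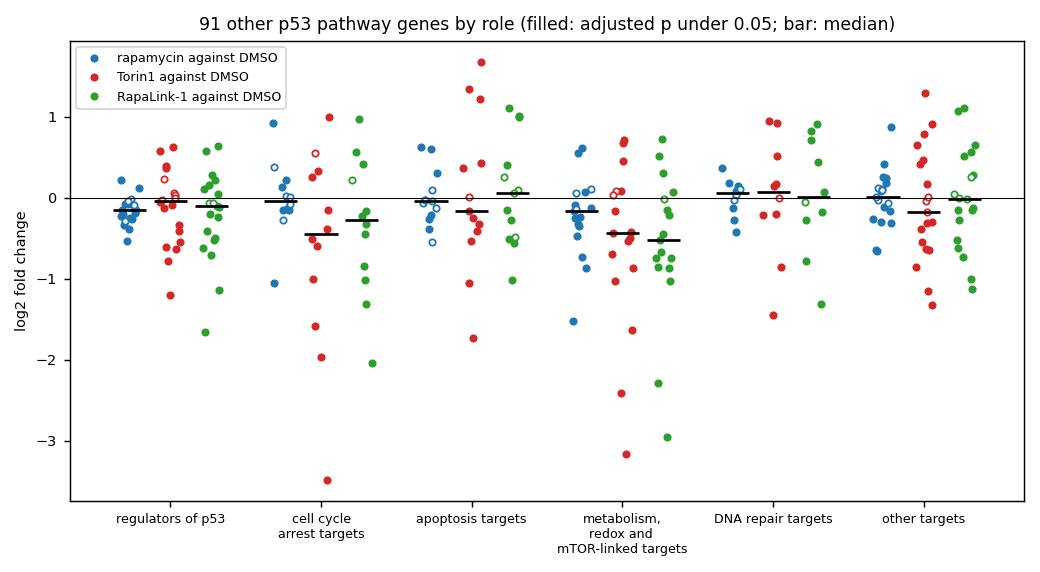
Log2 fold change against DMSO (y axis) of the 91 tested pathway genes in 6 lists by role (x axis), coloured by compound; filled points have an adjusted p under 0.05 and black bars are medians. The medians of the metabolism list lie at -0.17, -0.44 and -0.52 with rapamycin, Torin1 and RapaLink-1, and the lowest point, Cdkn1a with Torin1, lies at -3.48.

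Of 20 tested regulators of p53, rapamycin raised 2 and lowered 14, Torin1 raised 4 and lowered 10, and RapaLink-1 raised 7 and lowered 11, so that 10%, 20% and 35% were raised, beside 27.5%, 39.8% and 38.7% of all genes, and 70%, 50% and 55% lowered, beside 32.2%, 38.3% and 37.9%. Mdm4, which encodes the MDM2 relative that masks the p53 activation domain, stood at 57.6 to 58.3 CPM in DMSO cells, 64.6 to 71.7 under rapamycin, 83.4 to 88.6 under Torin1 and 89.3 to 92.5 under RapaLink-1. Its log2FC was 0.22 ± 0.03, 0.58 ± 0.03 and 0.65 ± 0.03 in that order. Cdkn2a, whose products include the MDM2 inhibitor p19Arf and p16Ink4a, which gene counts do not separate, moved in opposite directions with Torin1 and RapaLink-1. It stood at 342 to 358 CPM with DMSO and 343 to 353 CPM with rapamycin, at 448 to 453 CPM with Torin1 (log2FC 0.36 ± 0.02, adjusted p = 1.12e-47) and at 293 to 301 CPM with RapaLink-1 (-0.24 ± 0.02, adjusted p = 1.35e-28). RapaLink-1 against Torin1 gave -0.61 ± 0.02 (adjusted p = 2.99e-74). With rapamycin its log2FC was -0.01 ± 0.02 (adjusted p = 0.619), but 0.05 and called higher under upper-quartile scaling and the filter at 5 CPM (adjusted p = 0.00605 and 0.0102). Ppm1d, which encodes the phosphatase WIP1 that turns the response off, fell with Torin1 (-0.60 ± 0.05) and RapaLink-1 (-0.49 ± 0.05). Its call with rapamycin (-0.16 ± 0.05, adjusted p = 0.00490) was lost under upper-quartile scaling (0.102), the filter at 5 CPM (0.0696) and without rapamycin replicate 1 (0.0588).

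Of 12 targets that act in cell cycle arrest, 3 rose and 4 fell with rapamycin (25% and 33.3%, beside 27.5% and 32.2% of all genes), and 3 rose and 8 fell with Torin1 and again with RapaLink-1 (25% and 66.7% of the list, beside 39.8% and 38.3% of all genes with Torin1 and 38.7% and 37.9% with RapaLink-1). Cdkn1a, which encodes the p21 inhibitor of cyclin-dependent kinases, stood at 4.41, 4.11 and 4.49 CPM with DMSO, 2.57, 1.95 and 1.79 CPM with rapamycin, 0.258, 0.539 and 0.347 CPM with Torin1 and 1.08, 0.959 and 1.11 CPM with RapaLink-1, from 8 to 168 counts per library. The 4 groups did not overlap. Its log2FC was -1.05 ± 0.13 with rapamycin, -3.48 ± 0.20 with Torin1 and -2.05 ± 0.16 with RapaLink-1 (adjusted p = 3.40e-12, 2.48e-39 and 1.62e-26). The genes called higher were Ccng2, Gadd45a and Plk2 with each compound, the last 2 named after their values were seen. An antisense gene covers 19.1% of the exonic bases of Gadd45a, and how the counts used strand is not given. Ccng2, which encodes cyclin G2, an inhibitory relative of cyclin G1, went from 28.2 to 30.4 CPM with DMSO to 54.1 to 58.7 CPM over the 9 treated libraries (log2FC 0.92 to 1.00, SE 0.04), while Ccng1 fell.

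Of 13 tested targets that act in apoptosis, 3 rose and 3 fell with rapamycin, 5 rose and 7 fell with Torin1, and 4 rose and 5 fell with RapaLink-1. These are 23.1% and 23.1%, 38.5% and 53.8%, and 30.8% and 38.5% of the list, beside 27.5% and 32.2%, 39.8% and 38.3%, and 38.7% and 37.9% of all genes. Fas, a death receptor, stood at 39.6 to 40.0 CPM in DMSO cells, 59.1 to 62.1 under rapamycin, 98.4 to 103.0 under Torin1 and 79.0 to 82.4 under RapaLink-1, with log2FC of 0.60, 1.34 and 1.01 (SE 0.03). Pmaip1, which encodes the BCL2 antagonist NOXA, was called higher with Torin1 (1.22 ± 0.08) and RapaLink-1 (1.00 ± 0.09) and gave -0.02 ± 0.10 with rapamycin (adjusted p = 0.854). Torin1 against rapamycin gave 1.24 ± 0.08 for Pmaip1 (adjusted p = 1.25e-30). Among the genes called higher with rapamycin was Bcl2l1, named after its values were seen, which encodes a protein that protects from apoptosis (0.30 ± 0.03).

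Of 17 tested targets in metabolism, redox balance and restraint of mTOR, 11 fell with rapamycin, 11 with Torin1 and 12 with RapaLink-1, and 3, 4 and 4 rose. The shares that fell were 64.7%, 64.7% and 70.6%, beside 32.2%, 38.3% and 37.9% of all genes, and those that rose 17.6%, 23.5% and 23.5%, beside 27.5%, 39.8% and 38.7%. Ddit4, which encodes REDD1, an inhibitor of mTOR complex 1, stood at 40.0 to 41.7 CPM in DMSO cells, 14.03 to 14.5 under rapamycin, 4.37 to 4.83 under Torin1 and 5.13 to 5.51 under RapaLink-1 (log2FC -1.52 ± 0.05, -3.16 ± 0.06 and -2.95 ± 0.06). Sesn2, which encodes a leucine sensor that also restrains mTOR complex 1, went from 16.4 to 17.5 CPM in DMSO cells to 8.79 to 9.71 under rapamycin, 3.04 to 3.54 under Torin1 and 3.30 to 3.78 under RapaLink-1 (-0.87 ± 0.07, -2.41 ± 0.08 and -2.29 ± 0.08). Ephx1, an epoxide hydrolase, fell more with Torin1 (-1.64 ± 0.09) than with RapaLink-1 (-0.75 ± 0.08), and that difference was called (0.89 ± 0.10 for RapaLink-1 against Torin1, adjusted p = 3.27e-14). Trp53inp2, the relative of Trp53inp1 that acts in autophagy, rose with rapamycin (0.62 ± 0.05) and gave 0.03 ± 0.05 with Torin1 (adjusted p = 0.620) and -0.01 ± 0.05 with RapaLink-1 (adjusted p = 0.861). Under upper-quartile scaling it was called higher with both, at 0.15 and 0.13, and with Torin1 also with the filter at 5 CPM (0.12, adjusted p = 0.0235).

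Of 10 DNA repair targets, 4 rose and 3 fell with rapamycin, and 5 rose and 4 fell with Torin1 and with RapaLink-1. These are 40% and 30% of the list with rapamycin, beside 27.5% and 32.2% of all genes, and 50% and 40% with each of the others, beside 39.8% and 38.3% with Torin1 and 38.7% and 37.9% with RapaLink-1. Pcna, which encodes the sliding clamp of DNA replication, went from 253 to 256 CPM in DMSO cells to 187 to 196 under rapamycin, 92.6 to 95.2 under Torin1 and 101 to 104 under RapaLink-1 (log2FC -0.42, -1.45 and -1.31, SE 0.02). The genes called higher with all 3 compounds included the damage recognition genes Xpc (0.18, 0.95 and 0.82) and Ddb2 (0.37, 0.92 and 0.91), both named after their values were seen. The antisense gene Acp2 covers 23.8% of the exonic bases of Ddb2, and its reads may be counted there. Of 19 other tested targets, 6 rose and 7 fell with rapamycin, 7 and 9 with Torin1 and 6 and 9 with RapaLink-1. These are 31.6% and 36.8%, 36.8% and 47.4%, and 31.6% and 47.4% of the list. Of all genes, 27.5% and 32.2%, 39.8% and 38.3%, and 38.7% and 37.9% were called higher and lower, in the same order. Lif, a cytokine of the interleukin 6 family, rose from 18.5 to 20.5 CPM to 34.0 to 37.5, 47.4 to 49.1 and 40.8 to 44.6 CPM (log2FC 0.88, 1.29 and 1.11, SE 0.04). Notch1, a receptor, fell (-0.66, -1.15 and -1.004, SE 0.06). Antisense genes cover 9.76% of its exonic bases, and how the counts used strand is not given in the sources used here.

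**Figure D4:**
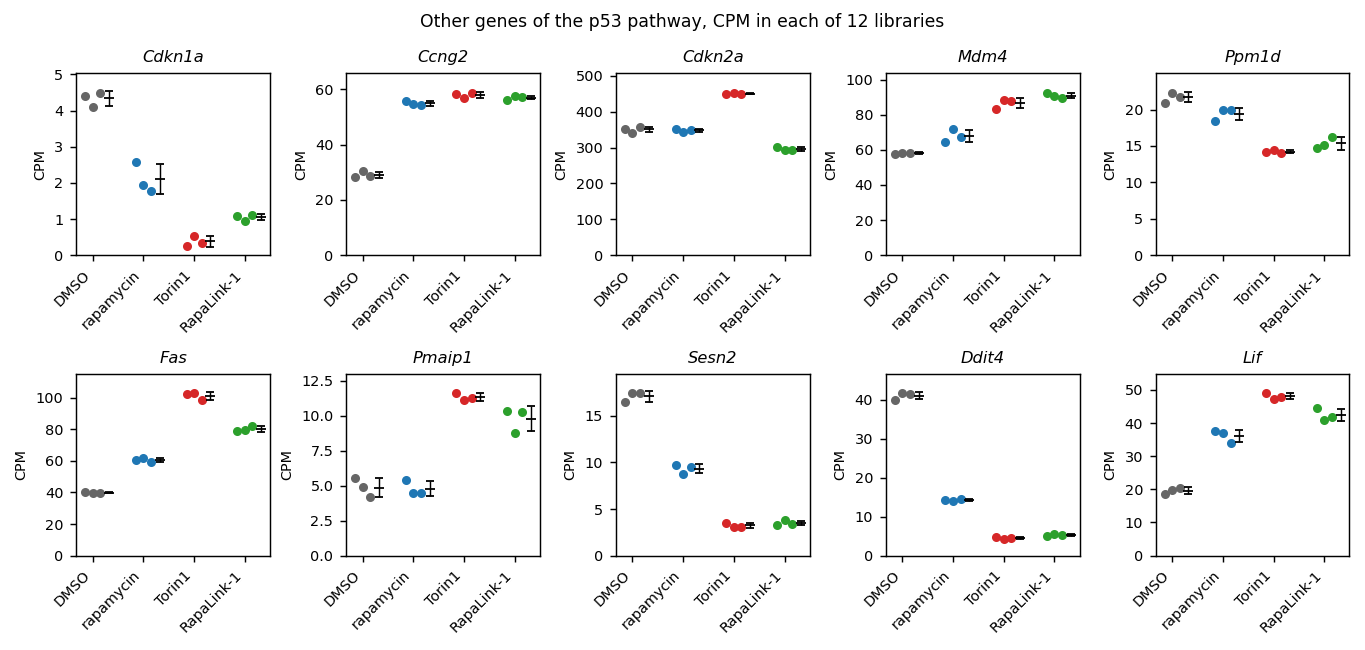
CPM (y axis, from 0) of 10 other genes of the p53 pathway in the 12 libraries, by treatment (x axis); points are libraries and the black marks the mean ± SD of 3 libraries. Cdkn1a and Ddit4 are lowest with Torin1, though for Ddit4 RapaLink-1 against Torin1 was not called (adjusted p = 0.0715). Sesn2 is low with both Torin1 and RapaLink-1, whose libraries overlap, Ccng2, Fas and Lif are above DMSO with every compound, and Cdkn2a is highest with Torin1 and lowest with RapaLink-1.

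The genes whose pattern over the 12 libraries was most like that of 3 members were found by Pearson's r of log2 CPM among the 9151 genes that averaged 10 CPM or more. Libraries of a group lie close together, so r mostly reflects the 4 group means, and it is given as a description. Most like Trp53 were Fam102b (r = 0.957), Mtmr10 (0.942) and Dgke (0.942). Most like Mdm2 were Abcc4 (0.888), Inpp5a (0.887) and Lmbrd2 (0.874). For Ccng1 they were Cpox (0.988), Ppm1f (0.982) and Dbt (0.980). At least 0.95 was reached by 1 gene for Trp53, by 0 for Mdm2 and by 97 for Ccng1.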

How the data were processed

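RNA was sequenced from 12 libraries of mouse embryonic fibroblasts, 3 for each treatment label. Per the labels' protocols, cells were grown in DMEM with 10% FBS, RNA was isolated on RNeasy columns and libraries were made with the NEBNext Ultra RNA kit. The deposited values are raw counts of reads per gene. The authors used featureCounts for them, per the file headers. Per the submitters' processing notes, Trimmomatic 0.36, STAR 2.5.2b, Subread 1.5.2, DESeq2 and GRCm38 were used. How strand and multiply mapped reads were counted, and with which annotation release, is not given in the sources used here. Of 49315 genes, 19906 had no count. Symbols came from GENCODE M21, and each member matched 1 gene ID.

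The test of the counts was that of edgeR 4.0.16 under R 4.3.3 (filterByExpr by group, TMM, robust quasi-likelihood F test, 2-sided) over all 12 libraries with treatment as the only term, which left 8 residual degrees of freedom and 15917 genes. The prior drawn from all genes added a median of 154.2 degrees of freedom. P-values and intervals therefore rest largely on a spread shared between genes. P-values were adjusted by the Benjamini-Hochberg method over all of these, and 95% intervals used the standard error of the same fit. The biological coefficient of variation was 1.48%. Replicates of a group differed by more than sampling noise (chi-square over its degrees of freedom 1.33 to 1.99). The script was tested on simulated data in which few genes changed. That test cannot show how the scaling behaves where many genes are called, as here. An exact permutation test of 3 libraries against 3 cannot go below 0.1 and was not used.

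Replicate numbers are shared by the groups, but deviations of libraries with the same number correlated by only -0.0391 to 0.0587. With so small a spread between replicates, the check cannot exclude that the numbers pair the libraries. Alternatives were other scalings (DESeq2 1.42.0 size factors, upper quartile), DESeq2, no filter or a filter at 5 CPM, only the 2 groups compared, each library left out, and the replicate block.

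The members and gene lists were chosen with earlier results of these data known. Named pathway genes are Cdkn1a, Mdm4, Cdkn2a, Ppm1d, Sesn2 and Gdf15 and, per compound against DMSO, the 3 largest rises and 3 largest falls among listed genes that were called, had a mean of at least 5 CPM and did not overlap between the 6 libraries.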

Additional observations from a re-analysis of the deposited data

How the results depend on the processing

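Across all alternatives, 1413 of 1504 recomputed fold changes of single genes kept their direction and their side of the threshold, 42 lost a call, 12 gained one with the same sign and 37 turned sign, of which 7 were then called, which makes 19 calls gained; the cause of these changes was not tested unless the alternative itself sets it. Every change of sign started from a difference that was not called. Under upper-quartile scaling the log2 fold change against DMSO turned to 0.0522 for Cdkn2a and 0.0389 for Pmaip1 with rapamycin, to 0.0778 for Trp53 with Torin1, and to 0.134 for Trp53, 0.105 for Mdm2 and 0.127 for Trp53inp2 with RapaLink-1. The same scaling gave 0.0410 for Mdm2 and 0.0207 for Ccng1 in Torin1 against rapamycin, and 0.0713 for Trp53inp1 and 0.0362 for Tnfrsf10b in RapaLink-1 against rapamycin. With only genes at a mean of 5 CPM or more, which also changes the TMM factors, the values were 0.0475 for Cdkn2a and 0.0342 for Pmaip1 with rapamycin, 0.0427 for Trp53 with Torin1, 0.0818, 0.0528 and 0.0755 for Trp53, Mdm2 and Trp53inp2 with RapaLink-1, 0.0106 for Mdm2 in Torin1 against rapamycin and 0.0242 for Trp53inp1 in RapaLink-1 against rapamycin. A fit of only the 2 groups compared gave 0.0128 for Cdkn2a with rapamycin and 0.00707 for Trp53 and 8.99e-04 for Trp53inp2 with RapaLink-1, and DESeq2 gave 2.78e-04 for Trp53inp1 in RapaLink-1 against rapamycin. In RapaLink-1 against Torin1, 2 of the 10 genes were called with DESeq2 and 2 without a filter, beside 4 in the fit reported, and leaving out each library gave 2 to 6. The shares of all genes called in these alternative fits are not given here, so whether such changes are particular to the 10 genes was not tested. Leaving out each library in turn gave -0.0292 to 0.00361 for Cdkn2a and -0.124 to 0.0819 for Pmaip1 with rapamycin, -5.58e-04 to 0.0590 for Trp53inp2 with Torin1, -0.0361 to 0.0394 for Trp53 and -0.0406 to 0.0138 for Trp53inp2 with RapaLink-1, -0.0890 to 0.0573 for Trp53inp1 in RapaLink-1 against rapamycin and -0.0624 to 0.0212 for Aen in RapaLink-1 against Torin1.

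With the replicate block, 10, 9 and 8 of the 10 genes were called against DMSO (rapamycin, then Torin1, then RapaLink-1), as without it, and Trp53 with rapamycin had a log2 fold change of 0.26. The shares of all genes called with the block are not given here. The block changed no call of a member. Depth was lowest among the members for Trp53inp1, from 93 counts per library, and its standard errors were the largest of the 10.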
